A study of Mus musculus with 4 samples.

Results

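The genes described here are 10 regulators of mitochondrial and fatty acid genes in muscle: the coactivators Ppargc1a and Ppargc1b, the nuclear receptors Ppara, Ppard, Esrra, Esrrb and Esrrg, and the DNA-binding or mitochondrial factors Nrf1, Tfam and Gabpa. They were taken by symbol from the 24054 gene symbols of the deposited count table, and all 10 passed the filter on low counts that left 13652 genes for testing. The set was proposed with differences between the groups already known, so the difference of each of the 10 genes is given as a description and not as a test. Soleus, a hindlimb muscle rich in slow oxidative fibres, was sequenced from *mdx* mice, a dystrophin-deficient model of Duchenne muscular dystrophy. Both groups were female mice of the C57BL/10ScSn-DMD mdx/J strain that entered the study at 8 weeks of age and received monthly infusions into the femoral vein until the 12-month endpoint. The 2 mCDC libraries came from mice given mouse cardiosphere-derived cells (mCDCs), heart-derived progenitor cells used at passage 5 and grown from the heart of 1 female C57BL/10ScSn/J mouse. The 2 vehicle libraries came from mice given only the carrier medium. No muscle of a mouse without the dystrophin mutation was among the libraries analysed.

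PGC-1α, the product of Ppargc1a, is a coactivator that does not bind DNA itself and docks on nuclear receptors and other factors at the genes of respiration and fatty acid use. The PPAR receptors bind fatty acids and pair with RXR receptors, and the ERR receptors act without a known natural hormone on genes of the citric acid cycle and the respiratory chain. NRF1 and GABP, whose DNA-binding subunit is the product of Gabpa, act on nuclear genes for mitochondrial proteins, among them Tfam, the factor that packages and transcribes mitochondrial DNA. In skeletal muscle this network is known for its high activity in slow oxidative fibres and for its response to endurance exercise and fasting.

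RefSeq promoter sequences (GRCm38.p6, from 250 bases before to 50 bases after a start) were matched by symbol for 9 of the 10 genes and searched on both strands. GCATGCGC, the core of the NRF1 site, was found in Ppara and Esrra, 22.2% of the 9 genes, and in 3.05% of all 27025 genes with a promoter sequence. CCGGAAG, the core of the ETS site that GABP binds, was found in Tfam and Gabpa, again 22.2%, and in 9.93% of all genes, and the longer CCGGAAGT, which contains it, in Tfam, 11.1%, and in 4.31% of all genes. With 9 genes these shares are a description. None of the 9 genes held TNAAGGTCA, the ERR response element (1.43% of all genes), TGACGTCA, the cAMP response element (2.03%), CACGTG, an E-box (8.09%), CTAAAAATA, a MEF2 site (0.59%), or a DR1, a direct repeat of AGGTCA with 1 base between (0.05%). The following sequences are shown because they are the starts with a match, together with that of Ppargc1a, the gene with the largest difference between the groups. Capitals mark the matched letters, and Ppargc1a has none. For Ppargc1a (chr5:51567726-51567845, minus strand), Ppara (chr15:85735656-85735775, plus strand) and Esrra (chr19:6921809-6921928, minus strand) they are the 120 bases before the start. For Tfam (chr10:71238073-71238102, minus strand) and Gabpa (chr16:84835019-84835048, plus strand) they are the 30 bases around the match.
Ppargc1a: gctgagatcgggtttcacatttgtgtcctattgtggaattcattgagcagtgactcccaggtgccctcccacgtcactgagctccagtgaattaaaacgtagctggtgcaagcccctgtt
Ppara: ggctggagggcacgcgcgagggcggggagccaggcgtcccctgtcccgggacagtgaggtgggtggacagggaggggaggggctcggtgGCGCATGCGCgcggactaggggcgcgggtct
Esrra: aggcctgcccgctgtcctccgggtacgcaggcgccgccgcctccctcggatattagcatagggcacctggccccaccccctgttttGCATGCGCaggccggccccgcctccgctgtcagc
Tfam: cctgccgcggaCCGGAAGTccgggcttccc
Gabpa: ggagggtaagtgCTTCCGGgtccctcagct
In Ppara the NRF1 core is read on both strands from 31 and 29 bases before the start, so the overlapping matches share 1 palindromic stretch. The match lies 34 bases before the start in Esrra, 47 in Tfam and 93 in Gabpa, where it is on the minus strand of the gene's reading direction. A match of letters is not evidence that the factor was bound in these muscles.

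Read depth was similar between libraries, with 22481391 to 27187425 expected counts in each, and 15.3% to 16.2% of the listed values were not whole numbers because RSEM splits reads between transcripts. The soleus label was checked against fibre genes, whose summed levels were 73480 to 90220 CPM (counts in each 1000000 after TMM scaling) for slow fibre genes and 33880 to 42100 CPM for fast fibre genes. Myh4, the myosin of type IIB fibres, was highest in mCDC 1 (2095 CPM) and lowest in mCDC 2 (47.4 CPM). It was at 162.8 and 410.8 CPM in the vehicle libraries. Myh1, another fast myosin, was at 4160 and 602.4 CPM in mCDC and 4488 and 1660 CPM in vehicle libraries. The labels do not say that the 2 libraries of a group came from separate mice, so p-values measure only the spread between these libraries, which may be technical. A gene was called when the fold change passed 1.5 and the unadjusted p of edgeR's quasi-likelihood test was under 0.05, the thresholds of the study's methods. Over all genes tested, 1.26% were called higher and 2.74% lower in mCDC muscle, so that 31.5% of calls were higher. That share was 42.2% after removal of each library's trend with transcript length and GC content and 19.2% with scaling to total counts. No gene had an adjusted p under 0.05, against 947 with an unadjusted p under 0.05. A level in whole muscle cannot tell fewer cells of a type from less RNA per cell.

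Of the 10 regulators, only Ppargc1a was called, at a lower level in mCDC muscle, and none was called higher. Over all genes tested, 2.74% were called lower and 1.26% higher. The median log2 fold change over the 10 genes was 0.11 against -0.0094 over all genes tested. Both mCDC libraries lay above both vehicle libraries for Ppargc1b, Esrra and Esrrb, an order that 19.2% of all genes tested showed, and below them for Ppargc1a, Ppara and Gabpa, an order shown by 19.4%. The groups overlapped for Ppard, Esrrg, Nrf1 and Tfam. No regulator had an adjusted p under 0.05 with edgeR or with DESeq2, and an unadjusted p under 0.05 was reached by 1 with edgeR and 2 with DESeq2. As the set was chosen on this comparison, these counts are no evidence about the set.

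**Figure D1:**
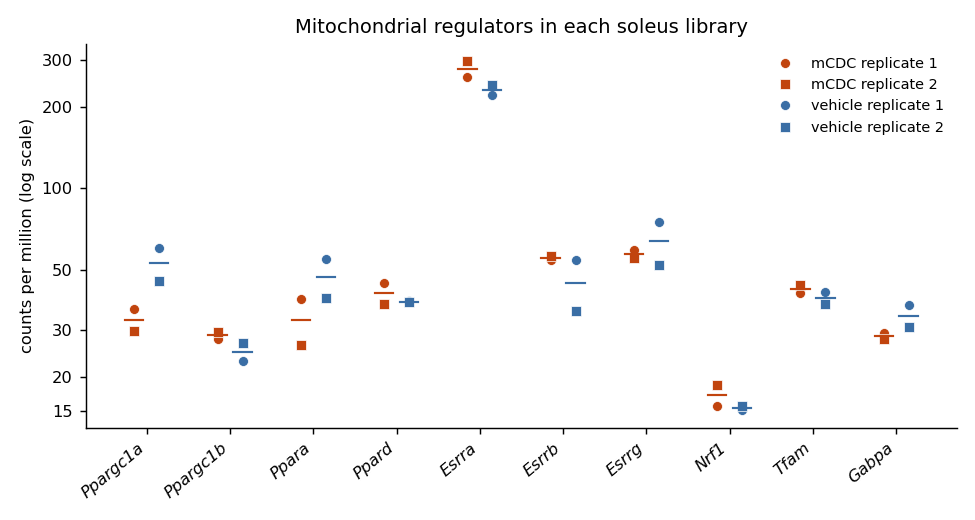
Level of each regulator in each soleus library, in CPM on a log axis, with mCDC libraries in orange, vehicle libraries in blue and a bar at each group mean (2 libraries a group). Ppargc1a ran from 29.6 to 35.7 CPM in mCDC libraries and from 45.6 to 60.3 CPM in vehicle libraries, while the groups of Tfam overlapped.

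Ppargc1a encodes PGC-1α and lies on the minus strand of chromosome 5, from 51454250 to 51567726 (GRCm38, the build also named mm10). It measured 35.7 CPM in mCDC 1, 29.6 CPM in mCDC 2, 60.3 CPM in vehicle 1 and 45.6 CPM in vehicle 2. Every mCDC value was under every vehicle value, and vehicle 1 was the highest. The group means were 32.6 ± 4.32 and 52.9 ± 10.4 CPM (SD, n = 2 each), a log2 fold change of -0.70 (SE 0.18) or 1.62-fold lower in mCDC muscle. Leaving out single libraries gave -0.89 to -0.48, and the gene was not called without mCDC 2 (-0.57) or without vehicle 1 (-0.48). After removal of the length and GC trend it stood at -0.56 and was not called, and it was called under the other 10 of 13 alternatives.

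Ppargc1b encodes the related coactivator PGC-1β and did not follow Ppargc1a. It was at 27.6 and 29.5 CPM in mCDC muscle and 22.9 and 26.8 CPM in vehicle muscle. Its mCDC values were the higher, by 0.20 on the log2 scale (SE 0.15), with 0.097 to 0.31 when single libraries were left out. Expressed per kilobase of transcript, the ratio of Ppargc1a to Ppargc1b was 1.06 in mCDC 1, 0.822 in mCDC 2, 2.16 in vehicle 1 and 1.40 in vehicle 2. The mCDC ratios were below the vehicle ratios, while which coactivator was ahead depends on the transcript length used.

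The PPAR receptors also differed from each other. Ppara, the receptor best known for fatty acid oxidation, lies on the plus strand of chromosome 15 (85734983 to 85802819). Its level was 39.0 and 26.4 CPM in mCDC libraries and 54.7 and 39.3 CPM in vehicle libraries. The groups were separated by the narrow gap between mCDC 1 and vehicle 2. The log2 fold change was -0.52 (SE 0.23), not called, with -0.83 to -0.26 over single libraries left out. Ppara was called lower in 3 of 13 alternatives, those with scaling to total counts, without mCDC 1 and without vehicle 2. Ppard, a receptor of oxidative muscle and the highest PPAR gene per kilobase, was at 44.8 and 37.3 CPM in mCDC and 38.1 and 38.0 CPM in vehicle libraries. The vehicle values of Ppard fell between the mCDC values, at a log2 fold change of 0.11 (SE 0.15), which turned to -0.03 without mCDC 1. The ratio of Ppara to Ppard per kilobase was 0.542 and 0.441 in mCDC libraries and 0.893 and 0.643 in vehicle libraries. Pparg, the receptor of fat cells and counted here among the partners, was low in all libraries, at 2.08 to 2.98 CPM.

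Among the ERR receptors, Esrra had the highest level per kilobase. Esrra encodes ERRα, the main ERR receptor of muscle and heart, and lies on chromosome 19 (6910977 to 6921813, minus strand), where its exons overlap those of Trmt112 on the other strand and of a microRNA gene. Reads of overlapping genes cannot be told apart with certainty, since the strand setting of the counting is not given in the sources used here. Its level was 257.8 and 295.3 CPM in mCDC and 221.4 and 241.3 CPM in vehicle libraries. Both mCDC values were the higher, by 0.26 on the log2 scale (SE 0.14), and the difference stayed between 0.16 and 0.35 over single libraries left out. Esrrb encodes ERRβ and was at 54.3 and 56.2 CPM in mCDC and 54.2 and 35.0 CPM in vehicle libraries. Only vehicle 2 was apart, so that the log2 fold change of 0.31 (SE 0.20) became 0.66, called higher, without vehicle 1 and 0.03 without vehicle 2. Esrrg encodes ERRγ, the receptor tied to the slow oxidative programme, and was at 58.9 and 55.3 CPM in mCDC and 75.2 and 52.3 CPM in vehicle libraries. Here vehicle 1 was apart, and the log2 fold change of -0.16 (SE 0.18) turned to 0.13 without that library and to 0.02 after removal of the length and GC trend. The ratio of Esrrb to Esrrg per kilobase was 1.12 and 1.24 in mCDC libraries and 0.876 and 0.815 in vehicle libraries.

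Of the remaining factors, Tfam and Nrf1 showed small differences and Gabpa was lower in both mCDC libraries. Tfam (chromosome 10, 71225464 to 71238280, minus strand) was at 41.1 and 43.7 CPM in mCDC and 41.2 and 37.3 CPM in vehicle libraries, a log2 fold change of 0.11 (SE 0.14). For Tfam the value was 0.24 after removal of the length and GC trend and 0.04 to 0.19 over single libraries left out. Nrf1, the gene of nuclear respiratory factor 1, was at 15.7 and 18.8 CPM in mCDC and 15.1 and 15.7 CPM in vehicle libraries, a log2 fold change of 0.16 (SE 0.17). For Nrf1 the value became 0.03 without mCDC 2 and 0.29 without mCDC 1. The groups of both genes overlapped. Gabpa (chromosome 16, 84834925 to 84863779, plus strand) was at 29.2 and 27.8 CPM in mCDC and 36.9 and 30.6 CPM in vehicle libraries. Both mCDC values of Gabpa were the lower, by -0.24 on the log2 scale (SE 0.16), and the difference shrank to -0.06 after removal of the length and GC trend and to -0.10 without vehicle 1. Gabpa shares exon sequence on opposite strands with Atp5j, a gene of the ATP synthase. Relative to Tfam, Ppargc1a per kilobase stood at 0.811 and 0.632 in mCDC libraries and at 1.37 and 1.14 in vehicle libraries.

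**Figure D2:**
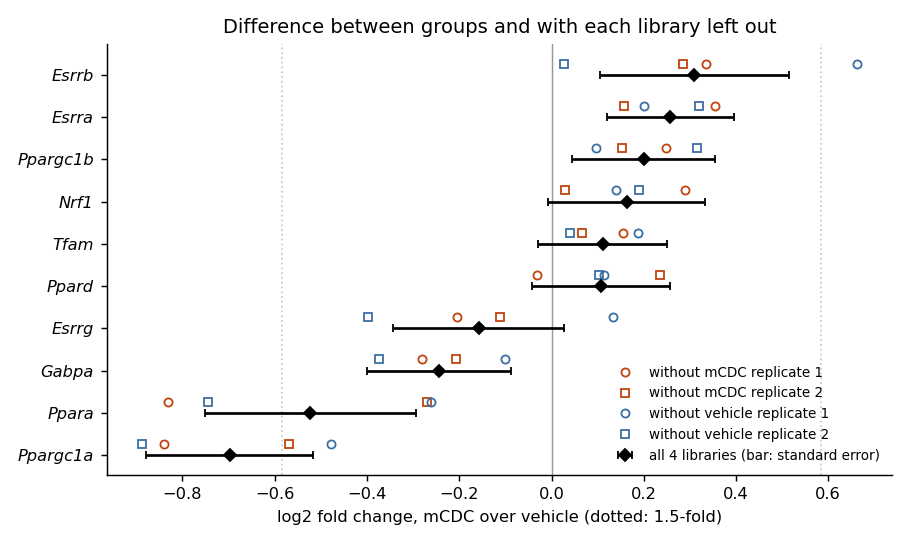
Log2 fold change of each regulator, mCDC over vehicle, from all 4 libraries (black diamonds, bars of 1 standard error) and with each library left out (open symbols); dotted lines mark the fold threshold of 1.5. Ppargc1a and Ppara stayed under 0 whichever library was left out, while Ppard and Esrrg crossed 0.

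The order of the regulators was read from CPM per kilobase of mean transcript length. Esrra led with 113.3 ± 14.0 (SD over all 4 libraries), followed by Ppard at 21.4 ± 1.90 and Ppara at 13.4 ± 3.91. Esrra lay above Ppard, and Ppard above Ppara, in values that did not overlap between the neighbouring genes. From Ppara downward each gene overlapped the next, through Esrrb (11.8), Esrrg (11.7), Tfam (9.80), Ppargc1a (9.59), Ppargc1b (7.30), Nrf1 (6.63) and Gabpa (6.24). The order depended on the length used. With coding length Tfam was second at 56.0, and with the longest transcript Ppard was at 12.1, near Ppara at 11.7. Esrra was first with each of the 3 lengths.

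**Figure D3:**
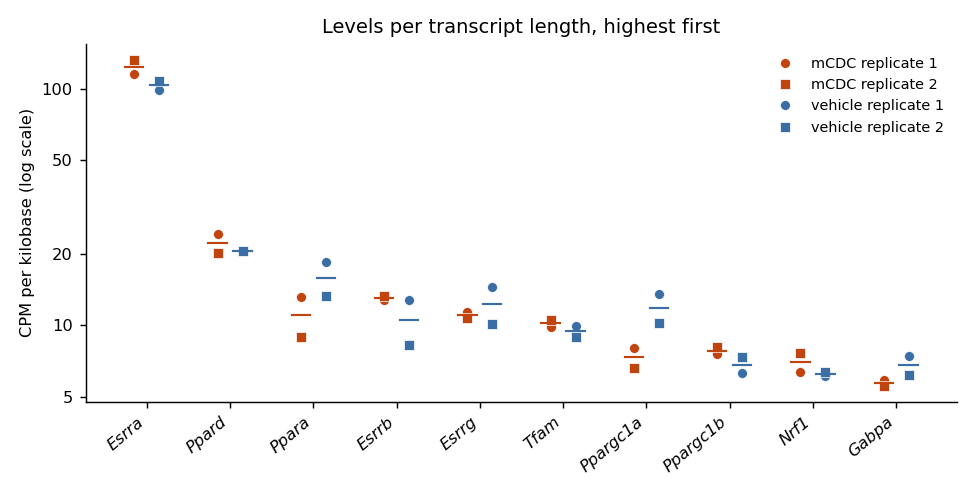
CPM per kilobase of mean transcript length for each regulator and library, on a log axis, ordered by the mean over all 4 libraries, with a bar at each group mean. Esrra at 98.7 to 131.7 was set apart from the other genes in every library, and Ppargc1a and Ppara had their vehicle points above their mCDC points.

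The lists of genes around the regulators were chosen with earlier results of these data known, so their counts are given as descriptions. The receptor partners of the regulators showed no call. None of 6 tested was called, with 0 at an unadjusted p under 0.05 in edgeR and 0 in DESeq2, and their median log2 fold change was 0.08. That median ran from 0.002 to 0.14 over single libraries left out and was 0.006 with scaling to total counts. Rxra, the main RXR partner of the PPARs, was at 157.9 and 146.6 CPM in mCDC and 157.5 and 134.2 CPM in vehicle libraries. Rxrb was at 57.9 and 59.8 CPM against 48.7 and 52.6 CPM, a log2 fold change of 0.22 (SE 0.13). The GABP partner genes Gabpb1 and Gabpb2 stood at 0.26 (SE 0.19) and -0.14 (SE 0.20).

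Among 18 coregulators, 1 was called higher and none lower, where 1.26% of all genes tested were called higher and 2.74% lower. An unadjusted p under 0.05 was reached by 1 higher and 2 lower in edgeR, the lower being Ncoa2 at -0.53 (SE 0.22) and Ncoa3 at -0.50 (SE 0.20), and by 3 in DESeq2. A lower call appeared for 1 gene with scaling to total counts, without mCDC 1 and without vehicle 1, and for 2 genes without vehicle 2. The called gene was Pprc1, which encodes PRC, the third member of the PGC-1 family. Its level was 28.5 and 30.6 CPM in mCDC libraries and 19.4 and 17.4 CPM in vehicle libraries. The groups did not overlap, and the log2 fold change was 0.69 (SE 0.15), with an unadjusted p of 0.00209 and an adjusted p of 0.56 in edgeR. Pprc1 was called higher under all 13 alternatives. The 2 called genes of the PGC-1 family thus went opposite ways, Ppargc1a lower and Pprc1 higher. Perm1, a muscle regulator that PGC-1 and ERR induce, was at 653.9 and 649.7 CPM in mCDC and 583.5 and 497.1 CPM in vehicle libraries, a log2 fold change of 0.27 (SE 0.14), not called. The corepressor gene Ncor1 stood at -0.15 (SE 0.12), with Mybbp1a, which encodes a repressor of PGC-1α, at 0.22 (SE 0.15). Over the 18 genes, 8 were above 0 and 10 below, with a median of -0.12 that turned to 0.02 after removal of the length and GC trend. Both mCDC libraries were above both vehicle libraries in 6 of the 18 and below them in 9. Those orders were seen in 19.2% and 19.4% of all genes tested.

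The kinases, phosphatases and transcription factors that act upstream of Ppargc1a, such as AMPK, calcineurin, CREB and MEF2, were not called in any of 19 cases. At an unadjusted p under 0.05 there were 0 in edgeR and 0 in DESeq2. The median was -0.08, or 0.01 after removal of the length and GC trend, and single genes ran from -0.34 to 0.17. Mef2c, a muscle transcription factor, was at 1120 and 1215 CPM in mCDC and 1357 and 1378 CPM in vehicle libraries, a log2 fold change of -0.23 (SE 0.15). Its mCDC values were the lower, without a call. Mef2d stood at 0.17 (SE 0.20), with -0.10 to 0.51 over single libraries left out. Stk11, the gene of the AMPK kinase LKB1, stood at 0.02 (SE 0.13), and Ppp3ca, a calcineurin subunit, at -0.18 (SE 0.14).

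PPAR target genes, which take up, transport and oxidise fatty acids, lay mostly above 0, unlike Ppara and Ppargc1a. Of 28 tested, 3 were called higher and none lower, or 10.7% called, where 1.26% of all genes tested were called higher and 2.74% lower. The count became 1 higher and 1 lower both without mCDC 1 and without vehicle 1. Above 0 were 23 genes and below 5. The median log2 fold change was 0.27, with 0.20 to 0.32 when single libraries were left out. The summed level of the list was 12190 and 10760 CPM in mCDC libraries and 9075 and 8983 CPM in vehicle libraries. None of the 28 had an adjusted p under 0.05, and an unadjusted p under 0.05 was reached by 8 with edgeR and 8 with DESeq2. As the list was chosen with earlier results known, these counts are no evidence about it.

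The 3 called PPAR targets differed in how far single libraries carried them. Fabp3, the fatty acid binding protein of heart and muscle, was at 2121 and 2129 CPM in mCDC libraries and 1248 and 1231 CPM in vehicle libraries. It was level within each group and rose in mCDC muscle, with a log2 fold change of 0.78 (SE 0.15), an unadjusted p of 0.000897 and an adjusted p of 0.46 in edgeR. It was called under all 13 alternatives, although 37.3% of its stretches of 31 bases also occur in other transcripts, mostly those of a pseudogene that is not in the table. Pdk4, the kinase that turns muscle from glucose to fat as fuel, was at 1583 and 1057 CPM in mCDC and 768.6 and 893.2 CPM in vehicle libraries. Its mCDC 1 value was the highest, and the log2 fold change was 0.67 (SE 0.21), with an unadjusted p of 0.0133 and an adjusted p of 0.64 in edgeR. Pdk4 was not called without mCDC 1 (0.35) or without vehicle 1 (0.57) and was called under the other 11 of 13 alternatives.

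Acot1, a thioesterase of fatty acyl-CoA, rested on 1 library. It was at 4.23 CPM in mCDC 1, 1.39 in mCDC 2, and 0.868 and 1.27 CPM in the vehicle libraries. It was called at a log2 fold change of 1.40 (SE 0.53), with an unadjusted p of 0.0292 and an adjusted p of 0.71 in edgeR, and was not called in 4 of 13 alternatives, with 0.35 without mCDC 1. Since 39.2% of its stretches of 31 bases are shared, mostly with Acot2, its own count is uncertain. Acot1 and Acot2 summed were at 68.1 and 53.9 CPM in mCDC and 37.0 and 43.6 CPM in vehicle libraries. The abundant fatty acid oxidation genes that were not called included Hadha at 895.1 and 870.1 CPM against 729.3 and 705.7 CPM, a log2 fold change of 0.30 (SE 0.14), and Acadvl at 0.33 (SE 0.13). Cpt1b, the gate for fatty acid entry into muscle mitochondria, stood at 0.27 (SE 0.16) with groups apart, and Lpl at 0.01 (SE 0.16) with groups that overlapped.

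**Figure D4:**
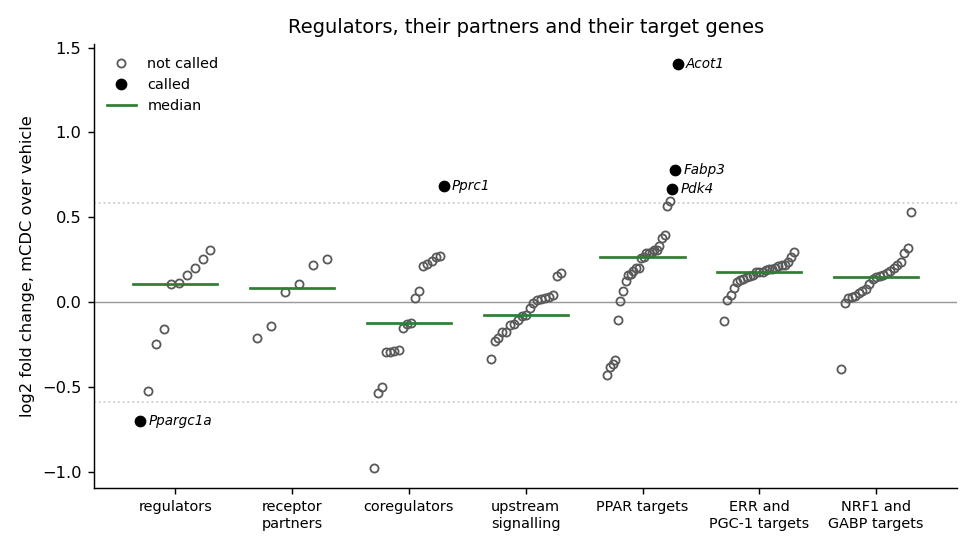
Log2 fold change, mCDC over vehicle, of the 10 regulators and of the tested genes of 6 lists around them, each point a gene, filled where called, with a green bar at the median and dotted lines at the fold threshold of 1.5. Ppargc1a was called lower, Pprc1, Fabp3, Pdk4 and Acot1 higher, and 22 of 23 ERR and PGC-1 targets lay above 0.

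ERR and PGC-1 targets, the genes of the citric acid cycle, respiratory chain and mitochondrial energy transfer, lay slightly above 0 with little spread. None of 23 was called, with 0 at an unadjusted p under 0.05 in edgeR and 0 in DESeq2. Yet 22 of 23 were above 0, and in 14 both mCDC libraries were above both vehicle libraries, with none in the reverse order. Over all genes tested those orders were seen in 19.2% and 19.4%. Their median was 0.18, the range -0.11 to 0.30, and the median stayed between 0.16 and 0.19 when single libraries were left out. With scaling to total counts it was 0.1, against -0.089 over all genes tested. Slc25a4, the adenine nucleotide carrier of muscle, was at 5032 and 4942 CPM in mCDC and 4023 and 4670 CPM in vehicle libraries, a log2 fold change of 0.20 (SE 0.19). The ATP synthase genes Atp5b and Atp5a1 each stood at 0.18 (SE 0.17), and myoglobin, Mb, at 0.01 (SE 0.21). Of the 19 list genes with a promoter sequence, 4 held the cAMP response element TGACGTCA (Cycs, Mdh2, Ogdh and Uqcrfs1), or 21.1%, and none the ERR response element.

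NRF1 and GABP targets, which include the factors of mitochondrial DNA and subunits of cytochrome oxidase, also lay mostly above 0, with single genes from -0.40 to 0.53. None of 21 was called, with 2 higher at an unadjusted p under 0.05 in edgeR and 0 in DESeq2, and 1 was called higher without mCDC 1 and without vehicle 1. Above 0 were 19 and below 2, summed levels overlapped between the groups, and the genes had a median of 0.15 that ran from 0.07 to 0.20 over single libraries left out. With scaling to total counts the median was 0.07, against -0.089 over all genes tested. Cox5b was at 977.7 and 1127 CPM in mCDC and 836.6 and 1059 CPM in vehicle libraries, with overlapping groups and a log2 fold change of 0.15 (SE 0.17). Cox4i1 stood at 0.18 (SE 0.16), Sdhb at 0.17 (SE 0.15) and Atp5g1 at 0.20 (SE 0.16). The ETS core CCGGAAG, shown above in Tfam and Gabpa, was in the promoter of 10 of the 17 list genes with a sequence, or 58.8%, and the NRF1 core in 4 of 17, or 23.5%. Shares of 9.93% and 3.05% were found over all genes. As the list names targets of these factors, the comparison is a description and not a test.

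**Figure D5:**
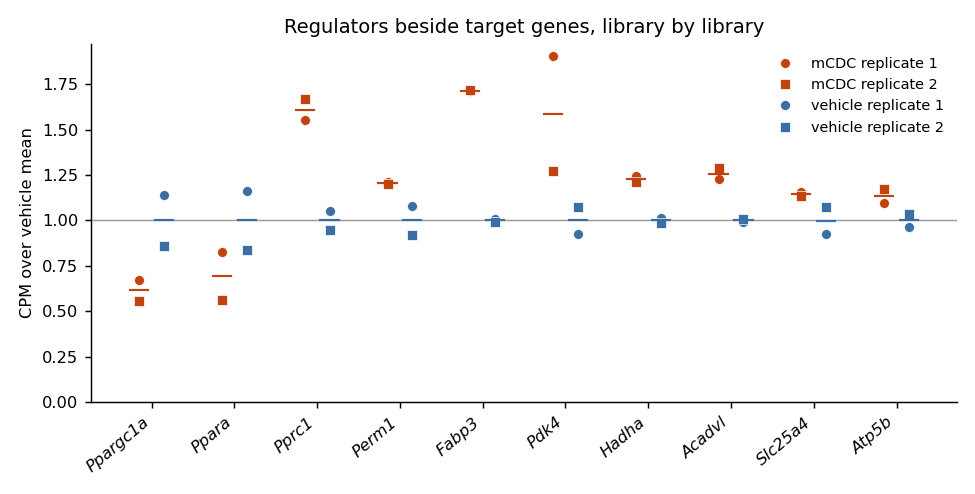
CPM of each gene divided by its vehicle mean, by library, for the regulators Ppargc1a and Ppara, the coregulators Pprc1 and Perm1, the PPAR targets Fabp3, Pdk4, Hadha and Acadvl, and the ERR and PGC-1 targets Slc25a4 and Atp5b, with bars at group means. Ppargc1a was at 0.674 and 0.558 of the vehicle mean in the mCDC libraries, where Fabp3 was at 1.71 and 1.72.

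Fibre type genes gave no call in the test used for the regulators. Of 8 slow fibre genes none was called, with a median of 0.20 and 7 above 0. That median ran from 0.14 to 0.27 over single libraries left out and was 0.12 with scaling to total counts. In 6 of the 8 both mCDC libraries were above both vehicle libraries, the order seen in 19.2% of all genes tested. Of 11 fast fibre genes none was called, with a median of 0.03. Among the fast fibre genes 3 were called lower without mCDC 1, 2 higher without mCDC 2 and 1 lower with the replicate block, and the median ran from -0.23 to 0.35 over single libraries left out. Both lists had 0 genes at an unadjusted p under 0.05 in edgeR and 0 in DESeq2. Summed levels overlapped between the groups for both. Myh7, the slow myosin, was at 46870 and 39220 CPM in mCDC and 47450 and 38220 CPM in vehicle libraries.

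Part of the genes of the circadian clock output differed between the same groups, and Ppargc1a is known to follow the time of day. Of 10 clock output genes tested, 5 were called lower in mCDC muscle (Dbp, Hlf, Per2, Per3 and Ciart) and none higher, where 2.74% of all genes tested were called lower. This list too was chosen with earlier results of these data known, so the count is no evidence about these genes as a set. Their median was -0.58, with -1.04 to -0.41 over single libraries left out, and Hlf, Per2 and Per3 were called under all 13 alternatives. The calls of Dbp and Ciart were lost without mCDC 1 and without vehicle 2, and that of Ciart also without vehicle 1 and with no filter on low counts. Per3, a period gene, was at 19.8 and 18.99 CPM in mCDC and 39.3 and 43.8 CPM in vehicle libraries, a log2 fold change of -1.10 (SE 0.15). The summed level of the list was 756.9 and 884.0 CPM in mCDC and 923.7 and 990.8 CPM in vehicle libraries. Nr1d1, a clock repressor, stood at 0.46 (SE 0.21), not called, with 0.16 to 0.84 over single libraries left out. Without vehicle 2 the list had 1 gene called higher and 3 lower. Hour of collection is not given in the sources used here, and the part of the clock genes in the Ppargc1a result was not tested.

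The 5 muscle fibre markers summed to 99530 to 114300 CPM, with none called and a median of 0.06. That median was 0.07 to 0.16 over single libraries left out and -0.02 with scaling to total counts. The 7 adipocyte markers summed to 150.4 to 152.8 CPM in mCDC and 188.9 to 217.5 CPM in vehicle libraries, with none called, none at 0 and a median of -0.28. Without vehicle 1 the median became 1.07, with 4 called higher and 1 lower, and without vehicle 2 it became -0.86, with 6 called lower. Fabp4, at 115.0 and 114.2 CPM in mCDC and 124.2 and 199.8 CPM in vehicle libraries, was the only 1 of the 7 without overlap between the groups. It was highest in vehicle 2. The other 6 markers overlapped between the groups and were each highest in vehicle 1, the library with the most Ppargc1a and Ppara, and lowest in vehicle 2. The 4 endothelial markers summed to 80.3 to 100.2 CPM in mCDC and 85.2 to 177.5 CPM in vehicle libraries, with vehicle 2 the highest, none called by edgeR's quasi-likelihood test and 1 called lower by DESeq2. The 4 fibroblast markers summed to 254.1 to 294.3 and 275.5 to 463.1 CPM, with Pdgfra called lower. The 4 macrophage markers summed to 11.3 to 21.6 and 9.61 to 16.3 CPM, with Cd68 called higher and Csf1r lower. The 4 Schwann cell markers summed to 21.0 to 24.1 and 19.97 to 34.8 CPM, with none called, but 2 called lower without vehicle 1 (median -0.90) and a median of 0.13 without vehicle 2. The 4 red blood cell markers summed to 256.8 to 266.9 and 234.2 to 431.8 CPM, with Hba-a2 called lower. The calls of Pdgfra, Cd68 and Csf1r were each lost without mCDC 2 and without vehicle 2. That of Cd68 was also lost without vehicle 1 and with DESeq2, that of Csf1r with DESeq2, and those of Pdgfra and Csf1r with the replicate block and with no filter on low counts. Pdgfra was not called after removal of the length and GC trend either. Without vehicle 1 the medians of the endothelial, fibroblast and red blood cell markers were -0.96, -0.77 and -1.09. Without vehicle 2 the medians of these lists were 0.09, -0.02 and 0.09. The part of these cells in the differences of the regulators was not tested.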

How the data were processed

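Per the labels and the study's methods, single-end reads of soleus RNA were mapped with Bowtie2 2.1.0 to a UCSC transcript set (mm10), and the authors deposited RSEM 1.2.15 expected counts per gene, without normalization. The labels and the methods name different library kits. Groups followed the treatment labels.

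Rounded expected counts entered edgeR 4.0.16 (R 4.3.3) with filterByExpr, TMM scaling and the quasi-likelihood F-test (legacy = FALSE), and p-values were adjusted after Benjamini-Hochberg over all 13652 genes. CPM used TMM-scaled library sizes. An exact permutation test of 2 libraries against 2 cannot go below p = 0.333 and was not used. GENCODE M21 (GRCm38) gave positions, GC content and lengths, matching 22750 symbols by their own name, 950 by an older one and 354 not at all.

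Members and lists were chosen with earlier results of these data known. All members are named, and from each list the called genes and up to 4 more in order of mean CPM, except 1 coregulator that is not reported here. Other genes named (Pparg, Ncoa2, Ncoa3, Acot2, Myh4, Myh1 and those named for a promoter match) were added after their values were seen. The alternatives used DESeq2 1.42.0, 2 other edgeR tests, other size factors and filters, a replicate block, a correction for length and GC content, and each library left out. Scripts were tested on simulated data.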

Additional observations from a re-analysis of the deposited data

How the results depend on the processing

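Of the 10 regulators, 1 was called (Ppargc1a), against 2 with scaling to total counts (Ppara and Ppargc1a) and 0 after removal of the length and GC trend, and 0 to 2 when single libraries were left out. The cause of these changes was not tested. Over all genes the 546 calls became 348 to 1107 when single libraries were left out, with 348 without mCDC 2, 941 without mCDC 1 and 1107 without vehicle 1, and 427 to 673 under the other alternatives. No regulator that was called changed direction, and Ppargc1a stayed below 0 in all 13 alternatives. With the replicate block 480 genes were called and Ppargc1a stood at -0.69. Deviations of same-numbered libraries from their group means correlated at -0.03. With 2 libraries a group this is a single value, which cannot show whether same-numbered libraries were paired. Each regulator had 395 or more counts in every library, and the precision is limited by the 2 libraries a group.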
